A study of Mus musculus with 10 samples.

Results

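Vwa2, the Fraser complex genes Fras1, Frem1 and Frem2, their scaffold gene Grip1, the integrin ligand gene Npnt and the integrin receptor gene Itga8 encode proteins that meet at the basement membrane between epithelium and mesenchyme. Every probe set whose platform annotation gave exactly 1 symbol, current or former, of these 7 genes was kept, which left 14 of the 45101 probe sets on the array, for 7 of 18194 genes. Npnt had 5 probe sets, Fras1, Grip1 and Itga8 had 2 each, and Vwa2, Frem1 and Frem2 had 1 each. Annotation symbols and gene IDs picked the same 14 probe sets. The set was chosen by the log2 signal of Vwa2, already known to be lower in the mutant arrays, and the other genes were added for their place in the same basement membrane. Differences between the genotypes are therefore given for these genes as a description, with no test, and the word called below only says on which side of the threshold a probe set fell in the fit over all probe sets.

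The study used the secondary palate of C57B6 mouse embryos at E14.5, the stage at which the palatal shelves fuse, to find the genes that TGF-beta regulates while the palate forms. The mutant group (genotype label Tgfbr2fl/fl;Wnt1-Cre) had 5 arrays, and Tgfbr2, the type II TGF-beta receptor gene, is deleted there by a Cre recombinase driven from Wnt1 sequences, which acts in neural crest cells and so in most of the palate mesenchyme, while the covering epithelium keeps the gene. The control group (genotype label Tgfbr2fl/fl, titles saying wildtype) had 5 arrays, so both groups carried the floxed alleles. Total RNA of each sample was hybridised to 1 Affymetrix mouse array, and sex was not determined. The labels do not say that each array came from a separate embryo, so errors and p-values describe the spread between these samples, which may be technical. Control replicate 1 stood apart over the array as a whole: its correlation with the other arrays was 0.978 to 0.982, against 0.990 to 0.996 among the other 9, so results that rest on it are also given without it.

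The basement membrane is a thin sheet of laminins, type IV collagens, nidogens and proteoglycans on which an epithelium rests. Fras1, Frem1 and Frem2 are very large proteins that form a complex just beneath it and help hold the epithelium to the mesenchyme in the embryo. Loss of any of them, or of Grip1, gives blistering in mouse embryos, and the human counterparts of Fras1, Frem2 and Grip1 are mutated in Fraser syndrome. The Vwa2 protein, also called AMACO, carries von Willebrand factor A (VWA) domains and is laid down in basement membranes together with the Fraser proteins. Nephronectin, encoded by Npnt, is a basement membrane ligand for the integrin whose alpha chain is encoded by Itga8, a pair best known from the outgrowth of the kidney's ureteric bud.

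A pair of promoter stretches is shown, that of Vwa2 because it had the largest difference of the 14 probe sets, and that of Frem2 because its signal deviated together with that of Vwa2 over the 10 arrays. Each runs 5′ to 3′ in the direction of the gene over the 250 bases before the annotated start, from RefSeq on GRCm38.p6, and capitals mark AGAC, the core of the SMAD box, and GGCGC, a GC-rich motif that SMAD proteins also bind, on either strand. The Vwa2 stretch is chr19:56874166-56874415 on the plus strand, and the Frem2 stretch is chr3:53657356-53657605 on the minus strand.
Vwa2: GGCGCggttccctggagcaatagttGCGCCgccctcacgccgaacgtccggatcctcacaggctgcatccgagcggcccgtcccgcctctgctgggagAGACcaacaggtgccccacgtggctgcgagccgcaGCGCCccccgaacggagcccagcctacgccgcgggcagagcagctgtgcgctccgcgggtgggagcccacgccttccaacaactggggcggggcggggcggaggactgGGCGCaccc
Frem2: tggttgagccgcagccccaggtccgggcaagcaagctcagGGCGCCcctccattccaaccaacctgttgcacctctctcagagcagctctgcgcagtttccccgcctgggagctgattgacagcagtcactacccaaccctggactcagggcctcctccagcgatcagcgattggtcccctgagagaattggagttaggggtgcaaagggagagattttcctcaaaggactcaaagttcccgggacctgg
The Vwa2 stretch held 1 match to AGAC and 4 to GGCGC. The Frem2 stretch held none to AGAC and 2 to GGCGC, which overlap as a single run that reads the same on both strands. Of all 32851 such stretches in the table, 82.9% held AGAC and 32% held GGCGC. GC content was 73.6% for Vwa2 and 59.6% for Frem2, against a median of 52.4%. Over the 10 stretches found for 6 of the 7 genes, 6 held AGAC, 6 held GGCGC and 0 held the AP-1 site TGANTCA, which 6.75% of all stretches held. These matches are letters in a window and were not tied to any measured binding.

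Vwa2 was lower in every mutant array than in any control array. Its probe set, 1438567_at, read 5.8, 6.0, 5.5, 5.7 and 5.7 in mutant replicates 1 to 5, against 7.3, 6.3, 7.4, 7.1 and 7.1 in control replicates 1 to 5 (log2 signal after RMA, the authors' normalization). The mutant arrays lay close together, 4 of the 5 controls lay at 7.1 or above, and control replicate 2 fell between them and the mutants. The group means were 5.74 ± 0.18 in mutants and 7.04 ± 0.43 in controls (SD, n = 5 each). The log2 difference, mutant minus control, was -1.30 (SE 0.18), which is 2.46-fold lower in the mutant. Because each sample is a piece of tissue, fewer cells of a type and less RNA per cell cannot be told apart.

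**Figure D1:**
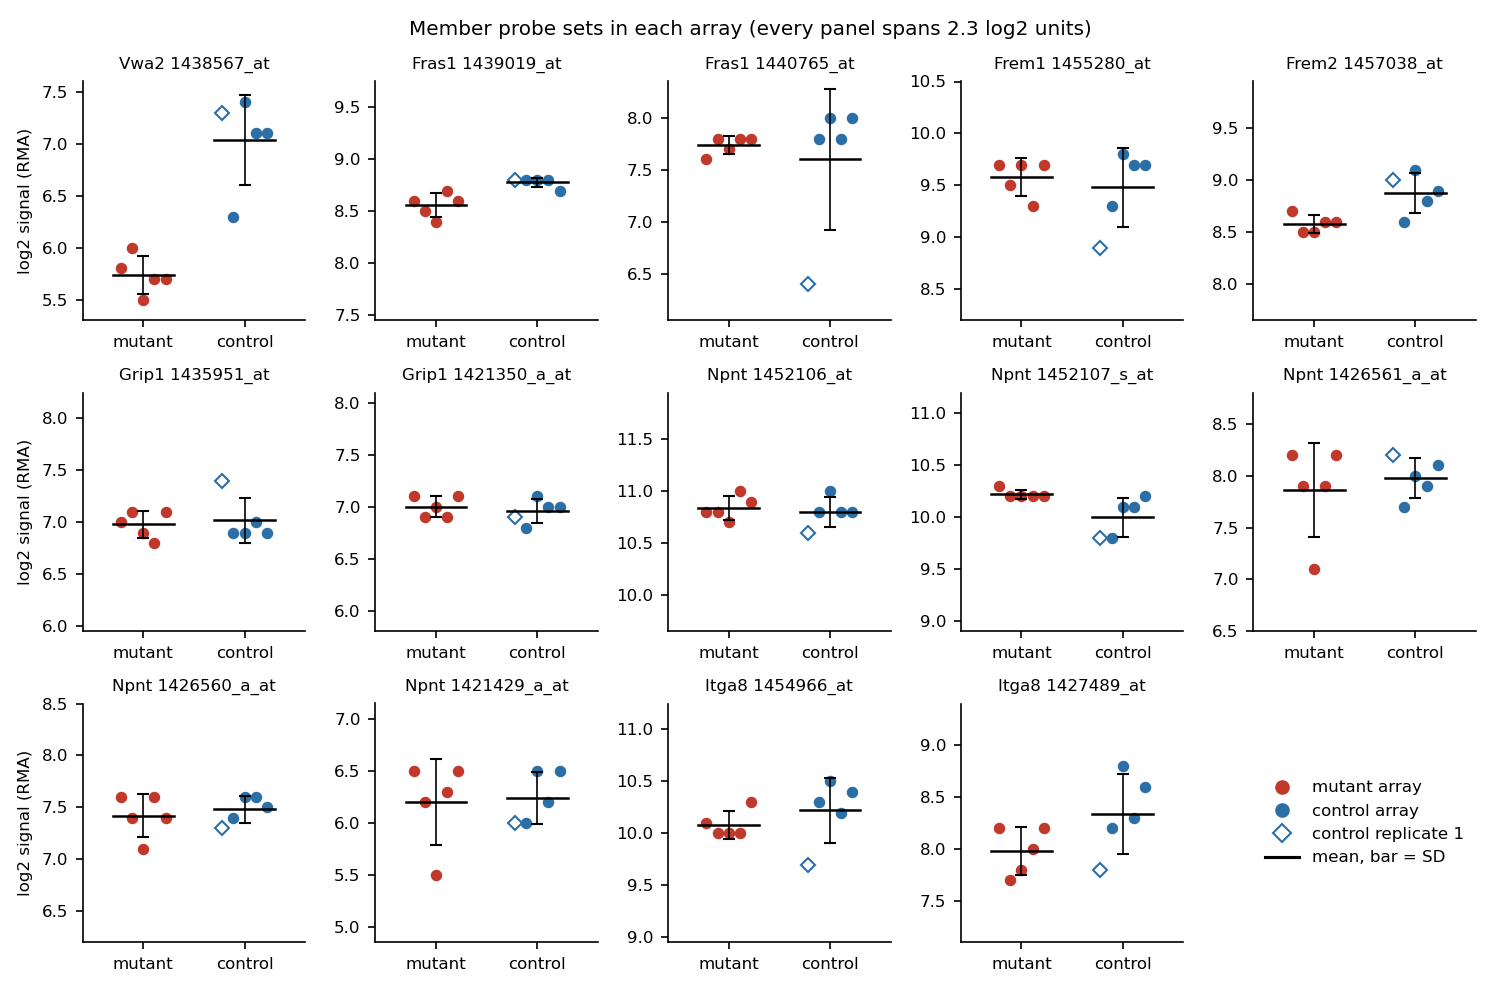
Log2 signal (vertical axis) of each of the 14 probe sets in 5 mutant arrays (red, left) and 5 control arrays (blue, right), with the mean as a line and the SD as a bar; the open diamond is control replicate 1. Vwa2 is the only panel in which the groups do not overlap, with mutants at 5.5 to 6.0 and controls at 6.3 to 7.4.

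The 14 probe sets were fitted with all 45101 by limma, with Benjamini-Hochberg adjustment over the whole array and a threshold of 0.05 on the adjusted p. Vwa2 was the 1 probe set of the 14 that was called lower, none was called higher and 13 were not called (3 lower and 1 higher at an unadjusted p under 0.05). Over the whole array 2.18% of probe sets were called lower and 1.08% higher. Vwa2 was also the only probe set of the 14 whose mutant arrays all lay below the control arrays, as 3.41% of all probe sets did, and none of the 14 lay wholly above, as 1.45% of all did. The median log2 difference of the 14 was -0.05, against 0.00 over all probe sets. Since the choice of genes used this contrast, nothing is read from these shares. The counts at an unadjusted p, here and below, have no share over the whole array beside them, so nothing is read from them either.

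Control replicate 1 was high for Vwa2 and low for several of the other genes. Without it, Vwa2 was 2.35-fold lower in the mutant, with a log2 difference of -1.24 (SE 0.19). Leaving out each array in turn gave values from -1.49 to -1.21 for Vwa2, the most negative of them without control replicate 2. Sex also differed between the groups as far as the Y-linked gene Eif2s3y shows, which read 9.0 to 9.3 in 4 mutant and 2 control arrays. It read 3.2 to 3.3 in the other controls and 5.1 in mutant replicate 5, whose sex is therefore unclear. With Eif2s3y as a covariate the Vwa2 difference was -1.40 (SE 0.21). Tgfbr2 had 3 probe sets, with log2 differences of 0.08, -0.04 and -0.08, but their place relative to the deleted exons is unknown, so they do not check the genotype.

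**Figure D2:**
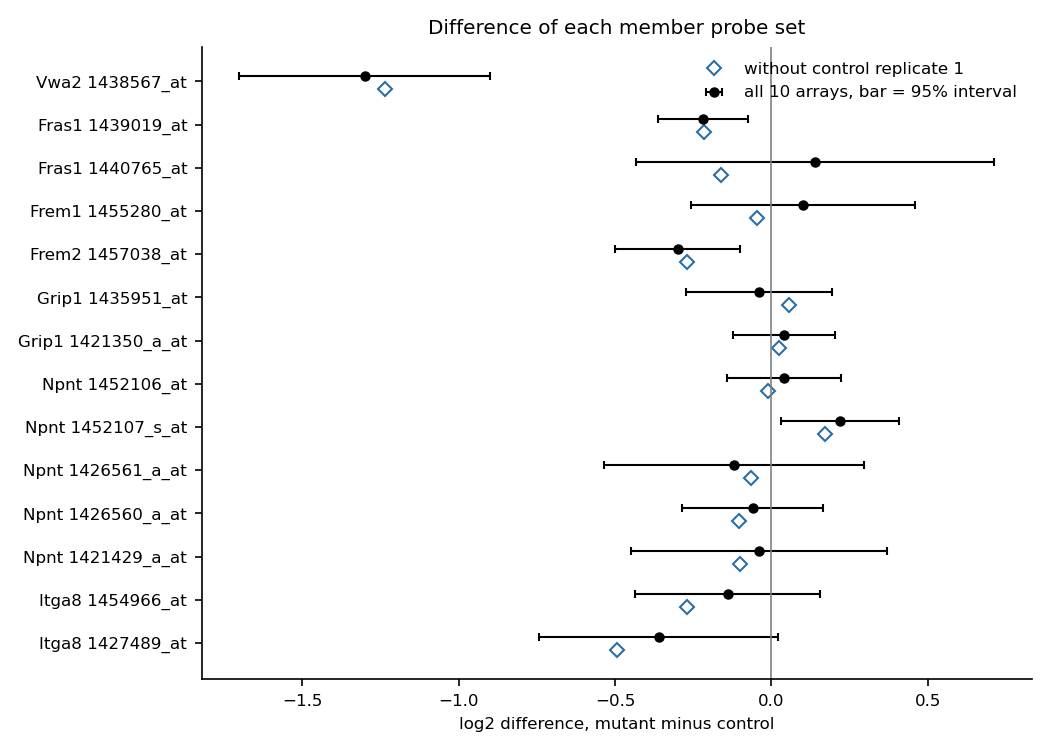
Log2 difference, mutant minus control (horizontal axis), of each of the 14 probe sets, with black points and 95% intervals from all 10 arrays and open diamonds for the value without control replicate 1. Vwa2 lies at -1.30, and the other 13 lie between -0.36 and 0.22; leaving out control replicate 1 moves the second Fras1 probe set from 0.14 to -0.16.

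The 3 genes of the Fraser complex differed far less between the genotypes than Vwa2. Frem2, whose protein spans the cell membrane and is made mainly by epithelium in mouse skin, read 8.7, 8.5, 8.5, 8.6 and 8.6 in mutant replicates 1 to 5, against 9.0, 8.6, 9.1, 8.8 and 8.9 in control replicates 1 to 5 (1457038_at). The mutant arrays took the low end and the controls the high end, with an overlap at 8.6 and 8.7 that came from control replicate 2. The log2 difference was -0.30 (SE 0.09, 95% interval -0.50 to -0.10), and it was not called. It was called without control replicate 2, at -0.37, in a fit that called 802 of 45101 probe sets lower, and in none of the other 19 alternatives.

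Fras1, the membrane-anchored partner of Frem2, gave different pictures on its 2 probe sets. On 1439019_at it read 8.6, 8.5, 8.4, 8.7 and 8.6 in mutant replicates 1 to 5, against 8.8, 8.8, 8.8, 8.8 and 8.7 in control replicates 1 to 5. The groups touched at 8.7 only, and the log2 difference was -0.22 (SE 0.07, 95% interval -0.36 to -0.08), not called. On 1440765_at it read 7.6, 7.8, 7.7, 7.8 and 7.8 in mutants, against 6.4, 7.8, 8.0, 7.8 and 8.0 in controls, where control replicate 1 lay far below all other arrays. The log2 difference there was 0.14 (SE 0.26) with all arrays and -0.16 (SE 0.07) without control replicate 1. With that array left out, both Fras1 probe sets therefore lay on the lower side in mutants, at -0.22 and -0.16, and neither was called.

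Frem1, the secreted member of the complex, which mesenchymal cells produce in mouse skin, read 9.7, 9.5, 9.7, 9.3 and 9.7 in mutant replicates 1 to 5, against 8.9, 9.3, 9.8, 9.7 and 9.7 in control replicates 1 to 5 (1455280_at). The groups overlapped throughout. The log2 difference was 0.10 (SE 0.16) with all arrays and -0.05 (SE 0.12) without control replicate 1, and the 95% interval with all arrays ran from -0.26 to 0.46. Grip1, whose protein carries Fras1 and Frem2 to the basal cell surface, lay at 6.8 to 7.1 in mutants and at 6.9 to 7.4 in controls on 1435951_at. On 1421350_a_at it lay at 6.9 to 7.1 in mutants and at 6.8 to 7.1 in controls. Its log2 differences were -0.04 (95% interval -0.27 to 0.19) and 0.04 (95% interval -0.12 to 0.20), so neither interval reaches a 1.5-fold change.

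The integrin receptor gene Itga8 was not called on either of its probe sets, and the size of its difference varied with the arrays and covariates used. On 1427489_at it read 8.2, 7.7, 7.8, 8.0 and 8.2 in mutant replicates 1 to 5, against 7.8, 8.2, 8.8, 8.3 and 8.6 in control replicates 1 to 5. On 1454966_at it read 10.1, 10, 10, 10 and 10.3 in mutants, against 9.7, 10.3, 10.5, 10.2 and 10.4 in controls. On both, control replicate 1 was the lowest control and lay within or below the mutants, while the other 4 controls lay at or above every mutant array apart from mutant replicate 5 on 1454966_at. The log2 differences were -0.36 (SE 0.17) and -0.14 (SE 0.14) with all arrays, and -0.50 (SE 0.14) and -0.27 (SE 0.08) without control replicate 1, and none of these was called. On 1427489_at the difference was -0.14 with Eif2s3y, -0.19 with the epithelial marker median and -0.05 with the muscle marker median as a covariate. On 1454966_at it was 0.07 with Eif2s3y, -0.0017 with the epithelial and -0.0012 with the muscle marker median. The 2 probe sets moved together from array to array, with a Pearson r of 0.88 between their deviations from the group means over 10 arrays and of 0.81 without control replicate 1.

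Npnt, the ligand of that integrin, showed no common direction over its 5 probe sets. The largest difference was on 1452107_s_at, which read 10.3, 10.2, 10.2, 10.2 and 10.2 in mutant replicates 1 to 5, against 9.8, 9.8, 10.1, 10.1 and 10.2 in control replicates 1 to 5. The groups touched at 10.2, with every other control below the mutants, and the log2 difference was 0.22 (SE 0.09), not called. The suffix of this probe set marks one whose probes can match more than 1 transcript, so its signal need not be that of Npnt alone. The other 4 probe sets had log2 differences between -0.12 and 0.04, and on each the groups overlapped. Mutant replicate 3 was the lowest mutant on all 4 of these, at 10.7, 7.1, 7.1 and 5.5, which also widened the mutant spread, for example to 7.86 ± 0.45 in mutants against 7.98 ± 0.19 in controls on 1426561_a_at.

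Within the groups and over all 10 arrays, Frem2 followed Vwa2 more closely than the other probe sets did, an order that changed when single controls were left out. Deviations from the group mean gave a Pearson r of 0.81 between Vwa2 and Frem2 over 10 arrays, against -0.21 to 0.51 for the other 12 probe sets. Control replicate 2, the lowest control for both genes, carried much of it: without that array r was 0.47, below the 0.51 of the Npnt probe set 1426561_a_at. Without control replicate 1 the r of Frem2 was 0.79, as was that of the Npnt probe set 1452107_s_at. Fras1 on its brighter probe set had an r of 0.05 with Vwa2. These correlations describe the same 10 RNA samples and carry no test.

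**Figure D3:**
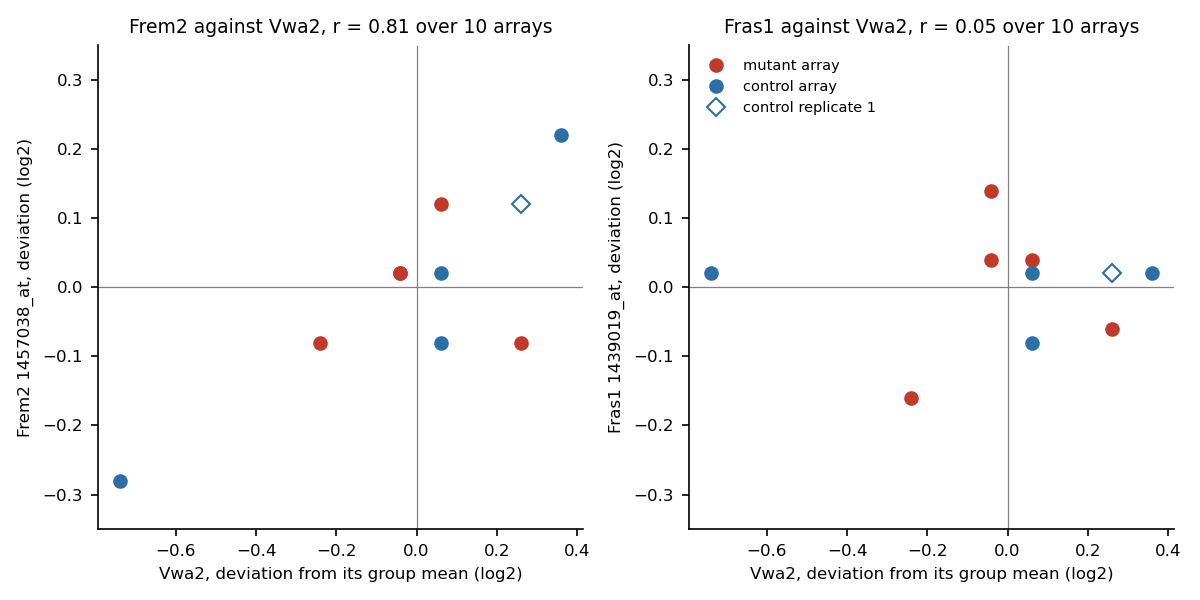
Deviation of each array from its group mean for Vwa2 (horizontal axis, log2) against that of Frem2 (left) and of Fras1 probe set 1439019_at (right), with mutant arrays in red, control arrays in blue and control replicate 1 as an open diamond; some points coincide. The Frem2 points run from lower left, where control replicate 2 lies, to upper right (r = 0.81), and the Fras1 points show no such slope (r = 0.05).

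Among 12113 other genes of the brighter range, those whose deviations were most like those of Vwa2 were Mpped1, Osr1, B3gnt7, Fbxo31 and Fam43a, with r between 0.89 and 0.95 over 10 arrays. They are the highest of many and are named as a description. Osr1 encodes a zinc finger transcription factor of the palate mesenchyme, and B3gnt7 encodes a glycosyltransferase. Without control replicate 2, r was 0.79 for Mpped1, 0.62 for Osr1, 0.75 for B3gnt7, 0.86 for Fbxo31 and 0.58 for Fam43a. Without control replicate 1 it was 0.89 to 0.94. None of the 5 was called between the genotypes, and their log2 differences lay between -0.32 and 0.22, so the likeness did not extend to the difference between mutants and controls.

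Genes related to these proteins were tested as 4 lists, with each gene given by its brightest probe set. The lists cover partners and related genes, the basement membrane core, epithelial anchorage and VWA domains, and not all of their genes encode basement membrane proteins. Of 72 genes measured, 1 was called higher, 0 lower and 71 not called, against 1.08% and 2.18% of all probe sets, dim ones included. In the fit with 1 probe set per gene, the like unit, 3 were called higher and 0 lower. Over all 18194 genes that fit called 528 higher and 975 lower. Without control replicate 1, 3 of the 72 were called higher, in a fit that called 760 of 45101 probe sets higher. The 1 gene called higher with all arrays was Vit, which encodes vitrin, a matrix protein that carries VWA domains as the Vwa2 protein does. Vit read 7.1, 6.9, 7.3, 7.5 and 7.4 in mutant replicates 1 to 5, against 5.8, 6.4, 6.1, 6.0 and 6.1 in control replicates 1 to 5 (1426231_at). All mutant arrays lay above all controls. The log2 difference was 1.16 (SE 0.13, limma adjusted p = 0.00259), or 2.23-fold higher in mutants, and 1.09 without control replicate 1. The lists were chosen with earlier results of these data known, which limits what this p-value can show. With the median of skeletal muscle markers, which moved with the genotype, as a covariate it was 1.45 and did not pass (limma adjusted p = 0.1). Of the 14 measured genes with VWA domains, the other 13 were not called with all arrays. Without control replicate 1, Matn2 was called higher as well, at 0.775, against 0.64 with all arrays. The list's median log2 difference was 0.14 with all arrays and 0.03 without control replicate 1.

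**Figure D4:**
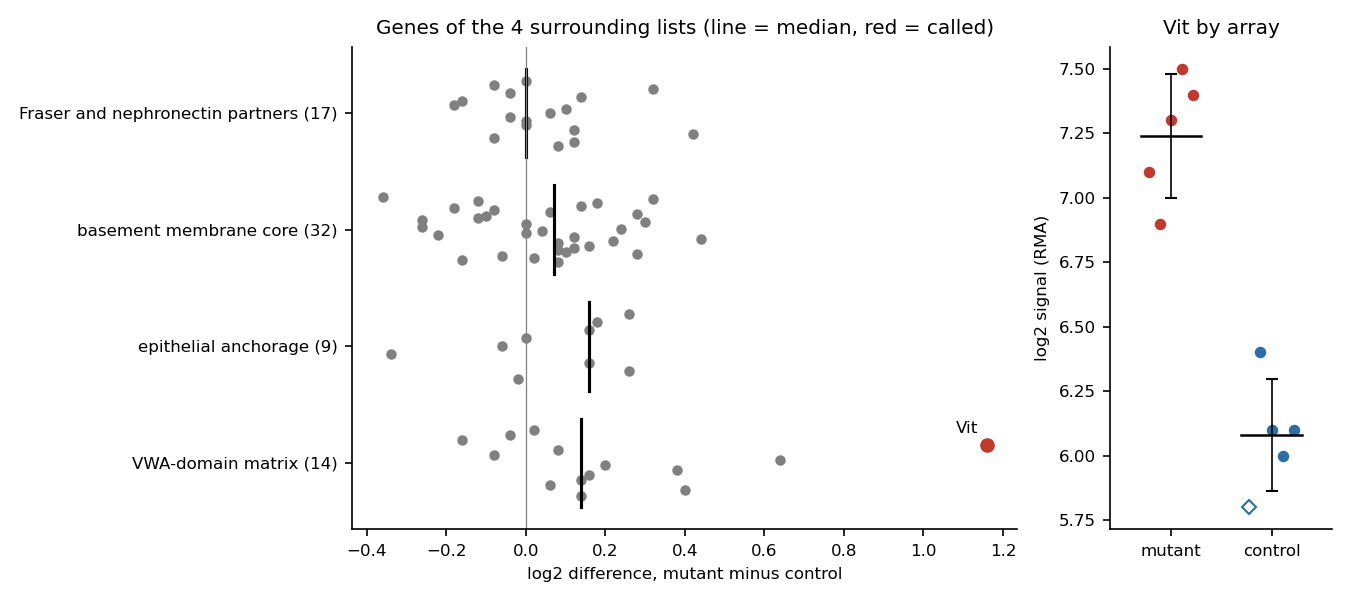
Left, log2 difference, mutant minus control (horizontal axis), of each gene in the 4 surrounding lists, with the number measured in brackets, the list's median as a line, called genes in red and the others in grey. Right, log2 signal of Vit in each array, with mutants (red) at 6.9 to 7.5 and controls (blue) at 5.8 to 6.4, the mean as a line and the SD as a bar; Vit is the 1 called gene, at 1.16.

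Of 17 genes listed around the Fraser complex and nephronectin, none was called by limma in either direction (0 lower and 1 higher at an unadjusted p under 0.05). The median log2 difference was 0.00. Not all 17 encode direct partners of these proteins, since Gdnf, Ret, Gfra1, Eya1 and Hoxa11 are among them. The smallest p in this list was that of Egfl6, which encodes a relative of nephronectin that binds the same integrin. Egfl6 read 10.8, 10.8, 10.8, 10.8 and 11.1 in mutant replicates 1 to 5, against 10, 10.5, 10.5, 10.5 and 10.7 in control replicates 1 to 5 (1419332_at). All mutant arrays lay above all controls, as on 1.45% of all probe sets, and the log2 difference was 0.42 (SE 0.12, limma adjusted p = 0.0807), or 0.31 without control replicate 1. It passed the threshold in 4 of 20 alternatives, among them the fit with 1 probe set per gene (adjusted p = 0.0467).

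Of 32 laminin, type IV collagen, nidogen, proteoglycan and other core genes, none was called by limma (2 lower and 6 higher at an unadjusted p under 0.05), with a median log2 difference of 0.07 and a range from -0.36 to 0.44. Hmcn1, which encodes the large matrix protein hemicentin, had the smallest p, with 10.10 ± 0.21 in mutants against 9.66 ± 0.23 in controls (SD, n = 5 each; log2 difference 0.44, limma adjusted p = 0.083). Hmcn1 passed the threshold in 2 of 20 alternatives, with 1 probe set per gene and with the epithelial marker median as a covariate. Of 9 genes for hemidesmosomes and anchoring structures of the epithelium, none was called with all arrays (1 lower and 2 higher at an unadjusted p under 0.05), with a median of 0.16. Without control replicate 1, Col17a1 was called higher, at 0.355, against 0.26 with all arrays. With all arrays the smallest p of these 9 genes was that of Plec, which encodes the linker protein plectin. Plec read 10.66 ± 0.15 in mutants against 10.40 ± 0.07 in controls on its brightest probe set (log2 difference 0.26, limma adjusted p = 0.0959).

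The markers of a palate were present: the epithelial gene Epcam read 10.5 to 11.2 in mutants and 10.8 to 11.4 in controls, and the mesenchymal gene Pdgfra 11.6 to 11.9 in mutants and 11.1 to 11.9 in controls. Of 24 epithelial markers limma called 0 (1 lower and 5 higher at an unadjusted p under 0.05), with a median log2 difference of 0.14. Without control replicate 1 it called 4 higher, Cdh1, Krt8, Krt18 and Cldn7, in a fit that called 760 of 45101 probe sets higher. The median was then 0.24. The median deviation of these markers ranged from -0.08 to 0.20 in mutant arrays and from -0.28 to 0.38 in controls, or to -0.02 without control replicate 1, which was the highest. With that median as a covariate the Vwa2 difference was -1.29 (SE 0.20). In that fit the Npnt probe set 1452107_s_at was called higher, at 0.29. The same fit called 6791 of all 45101 probe sets, 3084 of them higher, so this call is not read as particular to Npnt.

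Skeletal muscle markers moved with the genotype: 5 of 16 were called lower and 0 higher, with a median log2 difference of -1.85. Their median deviation was -1.51 to 0.63 in mutants and 0.37 to 1.75 in controls. Mutant replicate 4 lay among the controls on this measure, at 0.63, and its Vwa2 value was 5.7. From this single array nothing is read about the part of muscle in the Vwa2 values. With the muscle median as a covariate the Vwa2 difference was -1.36 (SE 0.31) and was no longer called, in a fit that called 1 of 45101 probe sets in all. Of the other marker lists, 1 of 10 smooth muscle and pericyte genes and 1 of 11 endothelial genes were called lower, or 1 and 2 without control replicate 1. The fit without that array called 1228 of 45101 probe sets lower and 760 higher. None of the 15 mesenchyme, 7 glia and neuron, 10 macrophage and blood and 8 bone and cartilage markers was called in either direction (3 lower and 5 higher of these 40 at an unadjusted p under 0.05), although without control replicate 1 a single glia and neuron marker was called higher. The part of these tissues in the values of the basement membrane genes was not tested otherwise.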

How the data were processed

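The deposited values are log2 expression values that the authors made with RMA, per the submitters' processing notes; software versions and batches are unknown here. They carry 1 decimal and run from 2.2 to 14.3; array medians were 6.4 or 6.5, and precision is set by how many arrays there are. Every column belonged to a sample (0 did not), and at most 26.8% of values were identical between any pair of arrays.

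Of 45101 probe sets, 34958 had 1 gene symbol, 932 several and 9211 none, and 34754 of the 34958 were named through their gene ID in a RefSeq table (GRCm38.p6). All probe sets were fitted with limma 3.58.1 in R 4.3.3 as mutant minus control, without filter, covariate or block, with two-sided tests and Benjamini-Hochberg adjustment. In simulated data for this comparison with all 45101 probe sets and 50 changed at each size, the fit found 3 at 1.2-fold, 30 at 1.5-fold, 45 at 2-fold and 48 at 3-fold, with 9 false calls. The simulated noise was normal and independent between probe sets, with no array standing apart, so these rates need not hold for the real arrays.

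The genes, lists and tests were chosen with earlier results of these data known. Named are all 14 probe sets, up to 5 called genes per surrounding list or the 1 with the smallest p, and the 5 genes most like Vwa2, leaving out the lower 40% of probe sets; Epcam, Pdgfra, Cdh1, Krt8, Krt18 and Cldn7 were chosen after their values were seen. Of 184 genes in all lists, 14 were not analysed here. Alternatives were 1 probe set per gene, the brighter 60%, a variance trend with robust fitting, a repeated quantile normalization, median centring, array weights, 3 covariates, the replicate block and leaving out each array.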

Additional observations from a re-analysis of the deposited data

Results flagged for a closer look

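Dixon's test was applied to the 5 arrays of each group on each of the 14 probe sets, 28 groups in all, of which chance flags about 1 in 20. It marked 6 arrays. Control replicate 2 was far below the other controls for Vwa2, at 6.3 against 7.1 to 7.4. Control replicate 1 was far below them for Fras1 on 1440765_at, at 6.4 against 7.8 to 8.0, and above them for Grip1 on 1435951_at, at 7.4 against 6.9 to 7.0. Mutant replicate 3 was below the other mutants for Npnt on 1426561_a_at, at 7.1 against 7.9 to 8.2. Control replicate 5 for Fras1 on 1439019_at (8.7, the others 8.8) and mutant replicate 1 for Npnt on 1452107_s_at (10.3, the others 10.2) differed by a single step of the 1-decimal rounding.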

How the results depend on the processing

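Vwa2 was chosen by this same contrast, so its counts here only describe how the value depends on the fit and lend it no support. The Vwa2 difference stayed negative in all 20 alternatives, from -1.49 to -1.21, and was called in 18. It was not called with the replicate number as a block (-1.30) or with the muscle covariate (-1.36). Either way 0 of the 14 probe sets were lower, in fits that called 98 and 1 of 45101. Same-numbered samples did not deviate together (correlations -0.06 to 0.07, and 0 of 10 arrays correlated best with their own number). Control replicate 1 stood apart and weighs on these correlations, so they cannot show that the numbers pair nothing. Leaving out single arrays gave 1 to 2 lower (2 without control replicate 2, with Frem2) and 0 higher. Over all 45101 probe sets these fits called 339 to 1228 lower and 125 to 760 higher, with 802 lower without control replicate 2. The epithelial covariate gave 1 higher, in a fit that called 3084 of 45101 higher and 3707 lower. For the 72 surrounding genes, 1 probe set per gene gave 3 higher and array weights 4. These fits called 528 of 18194 genes and 1132 of 45101 probe sets higher. Eif2s3y gave 2 higher and 1 lower, in a fit that called 319 higher and 592 lower. The epithelial covariate gave 11 higher and 3 lower, and the muscle covariate 0 higher. Leaving out single arrays gave 1 to 3 higher. There were 2 without mutant replicate 4, where 258 of all probe sets were higher, and 3 without control replicate 1, where 760 were. Vit was called in 19 of 20, and not with the muscle covariate (1.45, adjusted p = 0.1). Correlations without control replicates 1 and 2 were added after the data were seen. Values of 1 decimal and 5 arrays a group limit what small differences can show.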
